A study of Rattus norvegicus with 2 samples.

Results

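Of the 17260 circular RNAs (circRNAs) considered in the deposited table, 4 named FAT1 alone as the host gene, and these 4 back-splice junctions are described here. No further junction named FAT1 together with another gene. A circRNA is a closed loop formed when a downstream splice site of a transcript is joined to an upstream one, and the reads counted are those that cross the resulting back-splice junction. Of the 4 FAT1 junctions, 3 were listed in the library labelled bone cancer pain (the pain library below) and 3 in the control library, with 2 listed in both. FAT1 was chosen because its junction reads differed between the libraries, so its values describe the data and no test was run on them.

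The series followed a rat model of bone cancer pain with 1 library per group. In the bone cancer pain group, live Walker256 cells, a rat mammary carcinoma line grown as ascites, were injected into the tibial marrow cavity. The control group underwent the same surgery with Walker256 cells that had been boiled for 20 minutes. Each group had 3 animals, which were killed 21 days after surgery, and the labels do not say whether their RNA was pooled. The labels name the material in one field as cancer cells and in another as cells of the spinal cord. RNA was depleted of ribosomal RNA and treated with RNase R, an enzyme that digests linear RNA, before sequencing. With 1 library per group, every difference below is a difference between these libraries and has no replicate check.

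The pain library held 151685 junction reads and the control library 159941. Of 14 neuron markers, none had a circRNA, and of 14 markers of myelin and astrocytes only MBP, a myelin protein, had one, with 3 reads in the pain library and 2 in the control. Of 12 markers of epithelial carcinoma and cell division, 6 had a circRNA, namely TOP2A, ESPL1, BRCA1, BRCA2, ERBB2 and MKI67. MKI67 had only 2 reads in the pain library and was not listed in the control. The epithelial markers EPCAM, KRT8, KRT18, KRT19, KRT5 and KRT14 had none. A marker without a circRNA does not show that its cell type was absent, and the cell content was not tested. The positions and circBase identifiers (circBase is a catalogue of published circRNAs) in the table are of the human kind. The table places FAT1 on chromosome 4, whereas the rat gene Fat1 lies on chromosome 16 of assembly GRCr8. The build of the positions is not named in the table, so the symbols and positions below are given as the table has them. Fewer cells that make a circRNA and fewer molecules per cell cannot be told apart in such libraries.

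FAT1 encodes a very large cadherin with a long extracellular chain of cadherin repeats, a single membrane span and a cytoplasmic tail. It is known for roles in cell polarity, actin organisation at cell edges and restraint of growth signals through the Hippo kinases, and it is often mutated in squamous carcinomas. Human FAT1 also gives rise to an abundant circRNA, circFAT1, which has been studied in osteosarcoma and in carcinomas. Circular junction reads measure neither the linear FAT1 messenger RNA nor the protein.

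The 4 junctions use 6 different ends and fall into 2 pairs, each with 1 shared end. The most abundant circRNA, hsa_circ_0001461, runs from 187627717 to 187630999 on chromosome 4, a span of 3283 bp. An uncatalogued junction joins the same upper end, 187630999, to 187560876 and spans 70124 bp, so it encloses the whole of hsa_circ_0001461 and a further 66841 bp. At the other side, hsa_circ_0009039 runs from 187549308 to 187560937 (11630 bp). An uncatalogued junction from the same lower end, 187549308, to 187549917 spans only 610 bp and lies inside it. The table gives no strand. Human FAT1 is transcribed from the reverse strand, so the upper end is the one nearer the start of the gene.

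The long uncatalogued span and hsa_circ_0009039 overlap by 62 bp, from 187560876 to 187560937. This is the only stretch that the spans of the upper pair share with those of the lower pair. Together the 4 spans cover 81692 bp, of which hsa_circ_0001461 takes 4.02%. Sharing an end with another circRNA was common in the table, at 10671 of 17260 circRNAs (61.8%), and held for all 4 of FAT1. The nearest circRNA outside FAT1 on the same chromosome was a junction of UFSP2 1209384 bp away, with 2 reads in the pain library and no listing in the control.

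**Figure D1:**
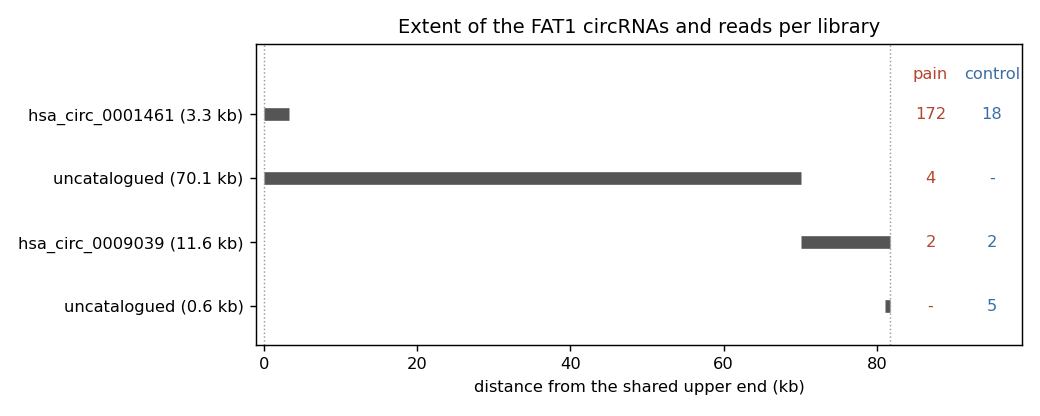
Extent of the 4 FAT1 circRNAs, as distance in kb from the upper end shared by hsa_circ_0001461 and the long uncatalogued junction, with reads in the pain library and in the control at the right (a dash marks a junction that was not listed). Dotted lines mark the ends that 2 junctions share; the 172 and 18 reads sit on the short span at distance 0.

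One junction carried the difference between the libraries. hsa_circ_0001461 had 172 reads in the pain library (exact 95% Poisson interval 147 to 200) and 18 in the control (10.7 to 28.4). Scaled to the library, these are 1134 reads in the pain library and 113 in the control per 1000000 junction reads (RPM). The ratio of bone cancer pain to control was 10.1, with an exact conditional binomial 95% interval of 6.19 to 17.4. The intervals do not overlap, and they cover counting error only.

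The other 3 junctions held few reads in either library. The long uncatalogued junction, which shares the upper end, had 4 reads in the pain library (interval 1.09 to 10.2) and was not listed in the control. hsa_circ_0009039 had 2 reads in the pain library and 2 in the control (ratio 1.05, 0.0764 to 14.5). The short uncatalogued junction was not listed in the pain library and had 5 reads in the control (1.62 to 11.7). No fold is given for the junctions listed in 1 library, because no value below 2 reads is listed, so an unlisted junction may have had a single read. Of the 4, only hsa_circ_0001461 reached 10 reads over both libraries.

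**Figure D2:**
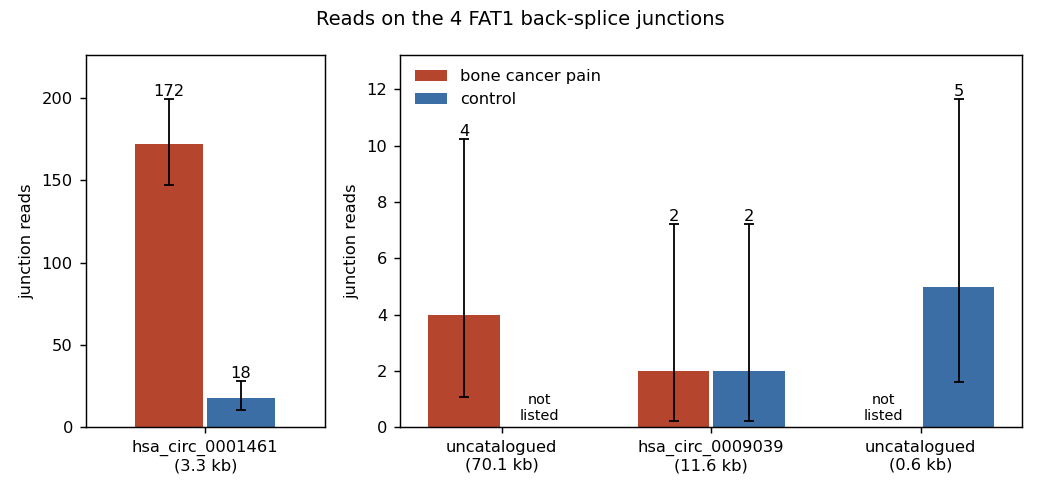
Reads on each FAT1 junction in the pain (red) and control (blue) libraries, with exact 95% Poisson intervals as bars; the right panel has a smaller scale. Only hsa_circ_0001461, with 172 and 18 reads, has intervals that stand apart, and the other 3 junctions have 5 reads or fewer in each library.

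Summed over its 4 junctions, FAT1 had 178 reads in the pain library and 25 in the control, a ratio of 7.51 (4.92 to 11.9). The sum differed by 1017 RPM, and hsa_circ_0001461 alone differed by 1021 RPM, or 100.4% of it. The long uncatalogued junction added 26.4 RPM and hsa_circ_0009039 added 0.681 RPM. The short uncatalogued junction took off 31.3 RPM. Without hsa_circ_0001461, FAT1 had 6 reads in the pain library and 7 in the control (ratio 0.90, 0.251 to 3.14), so no difference was detectable at this depth on the rest of the gene.

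The same reads can also be given as shares of the FAT1 total in each library, which is not a separate result. hsa_circ_0001461 took 96.6% of the FAT1 reads in the pain library (exact binomial interval 92.8 to 98.8) and 72.0% in the control (50.6 to 87.9). The short uncatalogued junction took none of the listed reads in the pain library and 20.0% in the control (6.83 to 40.7), which is 5 of 25 reads. These shares are parts of one whole, so a higher share of one junction goes with lower shares of the others.

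Grouped by shared end, the pairs lay on different sides of 1. The pair that uses 187630999 had 176 reads in the pain library and 18 in the control (ratio 10.3, 6.34 to 17.8). The pair that uses 187549308 had 2 reads in the pain library and 7 in the control (ratio 0.30, 0.0305 to 1.58), an interval that includes 1. Grouped by catalogue, the 2 junctions with a circBase identifier had 174 and 20 reads in the pain and control libraries (9.17, 5.76 to 15.4). The 2 without one had 4 and 5 reads in the pain and control libraries (0.84, 0.167 to 3.92).

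With a ratio of at least 2 counted as higher and at most 0.5 as lower (0.5 reads added to each library, 10 or more reads over both), the 1 FAT1 junction with enough reads was higher. Over the whole table, 936 of 5415 circRNAs were higher by the same measure (17.3%) and 919 were lower (17.0%). FAT1 was chosen on this contrast, and nothing is read from its count. The size of the difference stood near the top of the table. By the difference in RPM in favour of bone cancer pain, hsa_circ_0001461 ranked 9 of 17260. By log2 ratio it ranked 157 of the 5415 circRNAs with 10 or more reads, 19 of the 3079 with 20 or more, and 5 of the 7240 circRNAs listed in both libraries. Among the 452 circRNAs with 100 or more reads it had rank 2 by log2 ratio, after a circRNA of STIP1, a co-chaperone that links HSP70 and HSP90 (hsa_circ_0022631; 160 reads in the pain library and 16 in the control, ratio 10.5, 6.30 to 18.9). The interval of each covers the ratio of the other. Both reached 100 reads only through the pain library, and FAT1 was chosen on this contrast, so the ranks of hsa_circ_0001461 only describe it.

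The position of hsa_circ_0001461 among the other circRNAs of each library differed likewise. It was number 80 of 12322 by reads in the pain library and number 1751 of 12178 in the control, where 104 others had the same 18 reads. Of 2908 other circRNAs with 9 to 36 control reads, 149 were higher (5.12%) and 788 lower (27.1%), with a median log2 ratio of -0.35. The median had 12 reads in the pain library and the highest had 160, below the 172 of hsa_circ_0001461. Of 170 others with 86 to 344 reads in the pain library, 23 were higher (13.5%) and 3 lower (1.76%). Their median had 139.5 control reads and the lowest had 15. A set chosen by its control reads is tilted toward lower ratios, and one chosen by its pain library reads toward higher ones.

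**Figure D3:**
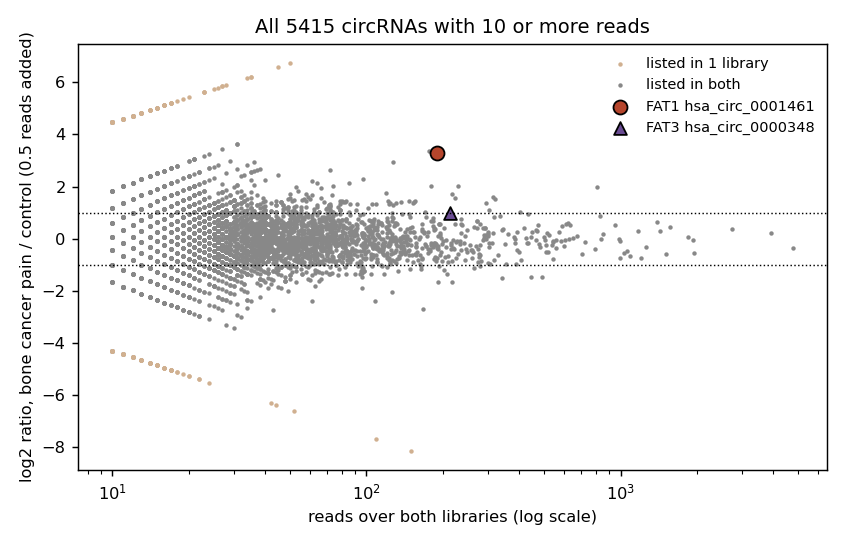
Log2 ratio of bone cancer pain to control (0.5 reads added) against reads over both libraries (log scale) for the 5415 circRNAs with 10 or more reads; dotted lines mark ratios of 2 and 0.5. FAT1 hsa_circ_0001461 (red circle, 3.30) stands above nearly all circRNAs with as many reads, and FAT3 hsa_circ_0000348 (purple triangle, 0.98) lies at the line for 2.

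Circles of like length, and those that the table places on chromosome 4 with FAT1, are given beside all circRNAs. Of all circRNAs with 10 or more reads, 17.3% were higher and 17.0% lower. Whether length or chromosome bears on the difference was not tested. Among 257 other circRNAs with 10 or more reads and a span within 10% of that of hsa_circ_0001461, 36 were higher (14.0%), 49 were lower (19.1%) and the median log2 ratio was -0.13. Among 283 others on chromosome 4, 46 were higher (16.3%), 47 were lower (16.6%) and the median was 0.08. All reads on chromosome 4 outside FAT1 numbered 8128 in the pain library and 8372 in the control (ratio 1.02, 0.993 to 1.06).

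As a host gene, FAT1 had the highest ratio of summed reads among the 709 host genes with 100 or more reads, and rank 54 of the 3117 with 10 or more. FAT1 was chosen on this contrast and reached 100 reads only through the pain library (178 reads, against 25 in the control). These ranks therefore only describe it. Its leading junction held 93.6% of its reads over both libraries, against a median of 56.9% over those 709, and 87 of them, FAT1 included, had a share at least as high. In 106 other host genes the leading junction had 20 or more reads and was higher, and the remaining junctions had 10 or more reads. The median log2 ratio of those remaining junctions was 0.42, with 31 of the 106 higher and 8 lower. For comparison, 13.6% of all host genes with 10 or more reads were higher and 13.9% lower. The 106 were picked by the ratio of their leading junction on this same contrast, so nothing is read from these counts. By the log2 ratio of its remaining junctions FAT1 stood at -0.13, and 77 of the 106 were at or above it. That value rests on 6 reads in the pain library and 7 in the control (ratio 0.90, 0.251 to 3.14). The interval is too wide to place FAT1 within the 106.

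Described next are the 4 host genes with the most similar pattern, by absolute difference in log2 ratio of summed reads over these 2 libraries. They were drawn from the 592 with 0.5 to 2 times the reads of FAT1. All 592 had 100 or more reads, and FAT1 had the highest ratio at that minimum, so each had to be lower. For 3 of the 4, the interval overlaps that of FAT1 (4.92 to 11.9). Closest was HIST1H1C, a linker histone (162 reads in the pain library and 38 in the control; ratio 4.50, 3.14 to 6.58), at a difference of 0.73. STIP1 followed (174 and 45; 4.08, 2.92 to 5.79), at 0.87. Next were CYP24A1, the enzyme that breaks down active vitamin D (143 and 40; 3.77, 2.64 to 5.50), and SLC8A1, a sodium-calcium exchanger (206 and 67; 3.24, 2.45 to 4.34), whose interval does not overlap that of FAT1. In each of these 4 the leading junction was above its host sum, at ratios of 7.87 for HIST1H1C, 10.5 for STIP1, 4.08 for CYP24A1 and 4.11 for SLC8A1. Those junctions held from 63.5% (HIST1H1C) to 98.4% (CYP24A1) of the reads of hosts chosen by summed ratio. Their ratios are therefore not independent of that choice.

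Among the relatives of FAT1, FAT3 was the other one with an abundant circRNA. FAT3 is a cadherin of the same family known from neurons. Its hsa_circ_0000348 (chromosome 11, 92085262 to 92088570) spans 3309 bp, near the 3283 bp of hsa_circ_0001461 of FAT1. It had 139 reads in the pain library and 74 in the control (ratio 1.98, 1.48 to 2.66), with no interval overlap to hsa_circ_0001461 in the control and an overlapping one in the pain library (117 to 164 reads for FAT3 in the pain library, 58.1 to 92.9 in the control). Both are counts at 1 junction and hold no term for length. A second FAT3 junction had 2 reads in the pain library and was not listed in the control. FAT4, which pairs with the dachsous cadherin DCHS1, had 1 junction with 2 reads in the pain library and no listing in the control.

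Of the 9 genes listed for the FAT and dachsous family and the related CELSR cadherins, 3 had a circRNA, namely FAT3, FAT4 and CELSR1 (not listed in the pain library, 2 reads in the control). FAT2, DCHS1, DCHS2 and FJX1, whose fly counterpart phosphorylates fat and dachsous, had none. FAT3 alone had 10 or more reads. Its sum of 141 reads in the pain library and 74 in the control put it just past 2 (2.01, 1.51 to 2.70). With median of ratios scaling it was 1.91 and no longer counted as higher. Over all host genes with 10 or more reads, 425 of 3117 were higher (13.6%) and 434 were lower (13.9%).

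Of 11 genes listed as partners or proteases of FAT1, 9 had a circRNA and 6 had 10 or more reads. ADAM10, a protease that sheds cell surface proteins, was the 1 that was higher, with only 8 reads in the pain library and 3 in the control (2.81, 0.675 to 16.5), an interval that includes 1. None was lower, and the median log2 ratio was -0.30, against -0.01 over all host genes. Of all host genes with 10 or more reads, 13.6% were higher and 13.9% lower. Highest among members with 20 or more reads was the scaffold HOMER1 (11 and 9; 1.29, 0.486 to 3.52), followed by ENAH, an actin regulator that binds the FAT1 tail (22 and 28; 0.83, 0.452 to 1.5). Its relative VASP was lowest (47 and 82; 0.60, 0.413 to 0.875), with beta-catenin, CTNNB1, next (11 and 15; 0.77, 0.321 to 1.8).

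In the list of Hippo pathway genes, which act between cell contacts and growth control, 33 of 43 had a circRNA and 24 had 10 or more reads. Of these 24, 2 were higher, 1 was lower and 21 lay between, with a median log2 ratio of 0.05. Over all host genes with 10 or more reads, 13.6% were higher and 13.9% lower, with a median of -0.01. MAP4K4, a kinase upstream of LATS (43 reads in the pain library and 18 in the control; 2.52, 1.42 to 4.64), and the scaffold WWC3 (54 and 28; 2.03, 1.27 to 3.33) were higher. STK3, the core Hippo kinase also called MST2, was lower (131 and 302; 0.46, 0.370 to 0.563). TAOK1, which activates the Hippo kinases, followed (23 and 48; 0.51, 0.293 to 0.847). Median of ratios scaling turned the sign of the list median to -0.031 and gave 1 higher (MAP4K4) and 3 lower. With 0.5 reads added, as in all calls, TAOK1 and the coactivator YAP1 then also passed as lower. YAP1 had 8 reads in the pain library and 17 in the control (0.50 without added reads and before this scaling, 0.185 to 1.21).

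Among cadherins, catenins and junction adaptors, 11 of 28 had a circRNA and 8 had 10 or more reads. None was higher, 1 was lower and 7 lay between, with a median log2 ratio of -0.01. All host genes with 10 or more reads had 13.6% higher, 13.9% lower and a median of -0.01. CDH1 to CDH6 had no circRNA, while CDH11, also a classical cadherin, had 3 junctions with 5 reads in the pain library and 3 in the control, none listed in both. The nectin adaptor afadin, MLLT4 in the table, was highest (50 reads in the pain library and 27 in the control; 1.95, 1.20 to 3.24), followed by the tight junction protein TJP1 (55 and 33; 1.76, 1.12 to 2.79). The protocadherin PCDH7 was lowest (13 and 29; 0.47, 0.226 to 0.938). Vinculin, VCL, which ties junctions to actin, was next (23 and 48; 0.51, 0.293 to 0.847), and it also passed as lower under median of ratios scaling.

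**Figure D4:**
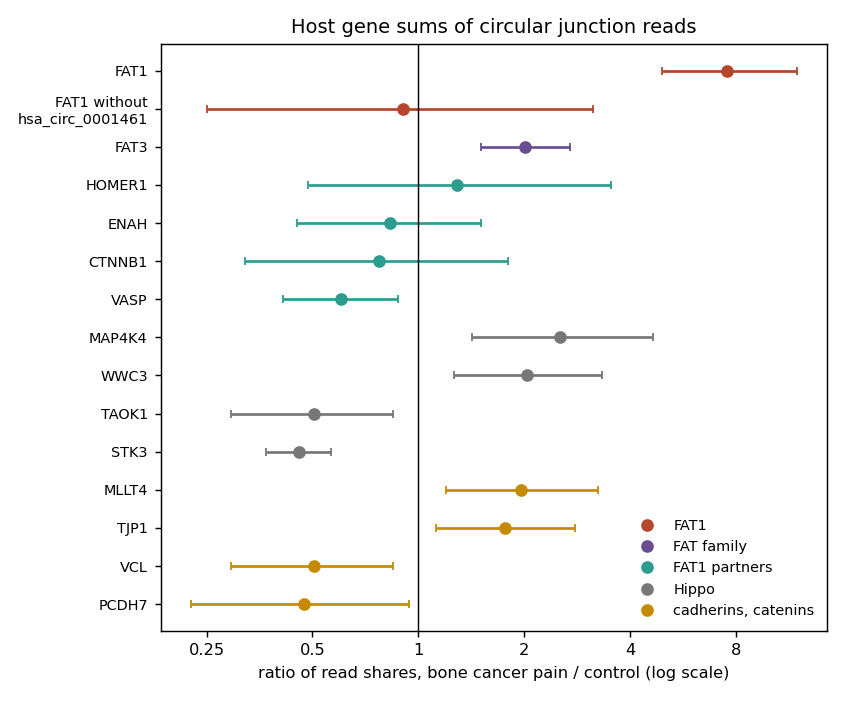
Ratio of read shares, bone cancer pain over control (log scale), for host gene sums of FAT1 and FAT1 without hsa_circ_0001461. Also shown is FAT3, the only gene of its family list with 20 or more reads. The lists of FAT1 partners, Hippo genes and cadherins each give their 2 top and 2 bottom genes at that minimum. Bars are exact 95% conditional binomial intervals for counting error. FAT1 stands at 7.51 and returns to 0.90 without its leading junction, while the other host genes shown lie between 0.46 for STK3 and 2.52 for MAP4K4.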

How the data were processed

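The deposited table is headed TPM in the file headers, but its values behave as RPM, reads per 1000000 circular junction reads with no term for length, and were used so. In each column, 100% of the values above the placeholder (0.001) came out whole, to within 0.01 reads, when divided by one common step. This gave the reads, with a lowest listed value of 2. The placeholder was taken as 0 reads. Per the submitters' processing notes, CASAVA 1.8, BWA and the build rn6 were named with no role. Neither the circRNA caller nor a read threshold is given in the sources used here.

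FAT1 junctions were the rows with FAT1 as the only host. For other host sums, names of small RNAs were not counted as hosts, and circRNAs with several hosts (405), none (341) or a name turned into a date (45) were left out. One circRNA on chromosome Y was left out. Ratios are shares of library reads, bone cancer pain over control, and their 95% intervals are exact (Clopper-Pearson, conditional on the summed reads). Log2 ratios and calls of higher (2) or lower (0.5) used 0.5 added reads and 10 or more reads; they are sizes, not tests. All intervals cover counting error only, not the spread between animals or libraries. They take reads as independent, but PCR copies are not independent molecules, so the intervals may be too narrow.

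The members and gene lists were chosen with earlier results of these data known. Named were all FAT1 junctions, the FAT and DCHS genes with a circRNA and the 4 host genes most like FAT1. From the lists of FAT1 partners, Hippo genes and cadherins, the 2 top and 2 bottom ratios at 20 or more reads were also named. ADAM10, YAP1, CDH11, CELSR1, UFSP2, MBP, the carcinoma and cell division markers and the circRNA of STIP1 were named after their values were seen. The older symbol MLLT4 was matched by hand. Alternatives were median of ratios scaling, a trimmed mean of ratios (TMM), other read minimums, 2 added reads, a ratio of 1.5 and subsets of junctions. The code was tested on simulated data. The sequence of the circles was not used here. The code ran in Python 3.11.15 (scipy 1.17.1, numpy 2.4.6, pandas 2.3.3), with figures from matplotlib 3.10.9.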

Additional observations from a re-analysis of the deposited data

How the results depend on the processing

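The ratio of hsa_circ_0001461 ranged from 9.17 with 2 reads added to 10.4 with circBase reads as the library total (an alternative chosen after seeing the data), all inside its counting interval. The FAT1 sum stayed within 7.03 and 9.38 under scaling, added reads, catalogue status and the removal of any single minor junction, those removals also chosen after seeing the data. Without hsa_circ_0001461 the sum turned to 0.90 (0.251 to 3.14), which is the value of the other 3 junctions. The sum of the other 3 junctions lay between 0.86 and 0.94 under other scalings and 2 reads added. The count of FAT1 junctions that were higher was 1, and 2 with a minimum of 2 reads (chosen after seeing the data), which admits the long uncatalogued junction. The count that were lower was 0, and 1 with a minimum of 5 or of 2 reads, which admits the short one. Median of ratios scaling moved log2 ratios by -0.08 and TMM by -0.01. The Hippo median of 0.05 became -0.17 with a minimum of 5 reads, -0.020 with 20 and -0.031 with median of ratios scaling; the cause was not tested. No paired analysis was possible because there was 1 library per group. The depth allows no statement on the minor FAT1 junctions, and with 1 library per group the spread between animals is unknown.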
